A study of Bos taurus with 12 samples.

Results

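Collagen chain genes were followed in whole corpora lutea of cows given saline or the luteolytic prostaglandin PGF2α. A gene was taken as a member when its symbol had the form COL, number, A, number and when it had at least 10 rounded counts in at least 4 of the 12 libraries. The tables held 39 such symbols among 27270 genes. Of these, 30 met the count minimum: 9 fibrillar chains, 8 basement membrane chains and 13 other chains. Of the 14481 genes of the whole series that met the same minimum and were tested, these 30 are described here.

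All cows were of mixed breed, with synchronized estrous cycles, and their corpora lutea were removed by ovariectomy at the mid luteal phase (day 10). Control cows received saline. Treated cows received 1 intramuscular luteolytic dose of PGF2α and were collected 4 h or 12 h later. Each group held 4 cows, each cow gave 1 library of total RNA, and cows of different groups are different animals. There was 1 saline group, so a change with time since the injection as such and a change after PGF2α cannot be told apart.

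Collagens are the main structural proteins of connective tissue. Their chains wind around each other into helices. The fibrillar collagens align into the banded fibrils of the stroma, type IV collagen forms the sheet of the basement membrane under endothelial cells, and other types coat fibrils, link them to cells or form fine filaments and networks. The corpus luteum is a gland with dense capillaries and little stroma between its steroid-producing cells, and PGF2α starts its regression. Fibroblasts, pericytes and endothelial cells are known makers of collagen. Which cells of the gland held each chain was not tested here.

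The tissue label was checked against marker genes. The 9 listed markers of steroidogenic luteal cells summed to between 22378 and 32894 TPM in control cows. TPM is a level scaled to transcript length and to the total of the library. At 4 h they summed to between 20413 and 24257, and 2 of the 9 fell. At 12 h they summed to between 5438 and 10989, and 8 of the 9 fell. Of 11 macrophage and monocyte markers, 8 rose at 12 h. Among all tested genes, 8.65% rose and 5.59% fell at 4 h, and 23.6% rose and 25.3% fell at 12 h. The libraries held between 10263310 and 22600213 expected counts, the lowest being that of control cow4285. Weighted by TPM, transcripts averaged 1583 ± 41.9 bases in control cows, 1601 ± 54.2 in 4 h cows and 1379 ± 69.7 in 12 h cows (n = 4 each, SD). Mitochondrially encoded genes took 12.4% to 14.1% of counts in 3 of the 12 h cows and 7.22% in the other, cow6314, against 6.77% to 10.2% in control and 4 h cows. On the log2(TPM + 1) scale the median of all tested genes moved by -0.25 at 12 h, against 0.01 with counts scaled by TMM, a method that equalizes libraries on the bulk of their genes. Changes are given below on the TMM scale, and levels in TPM. In whole tissue, fewer cells of a type and less RNA per cell cannot be told apart.

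The levels of the 30 chains spanned from a mean of 0.230 to 3337 TPM in control cows. COL3A1, COL1A2 and COL1A1, the chains of type III and type I collagen, stood highest, at 3337 ± 1724, 3093 ± 1679 and 2663 ± 1662 TPM (SD, n = 4). Together they made up 62.9% to 74.1% of the summed TPM of all 30 chains in the control cows, 60.0% to 69.6% at 4 h and 63.7% to 75.8% at 12 h. COL4A1 and COL4A2, the chains of the most widespread basement membrane collagen, followed at 1111 ± 331 and 678 ± 195 TPM (SD, n = 4). COL6A1 and COL6A2, which form beaded filaments near cell surfaces, came next at 622 ± 229 and 426 ± 158 TPM (SD, n = 4). The 30 chains took 2.25% to 6.42% of all counts in control cows. In the order of control means, 27 of the 29 pairs of neighbours overlapped between cows. The exceptions were COL26A1 over COL6A5 and COL7A1 over COL11A2.

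**Figure D1:**
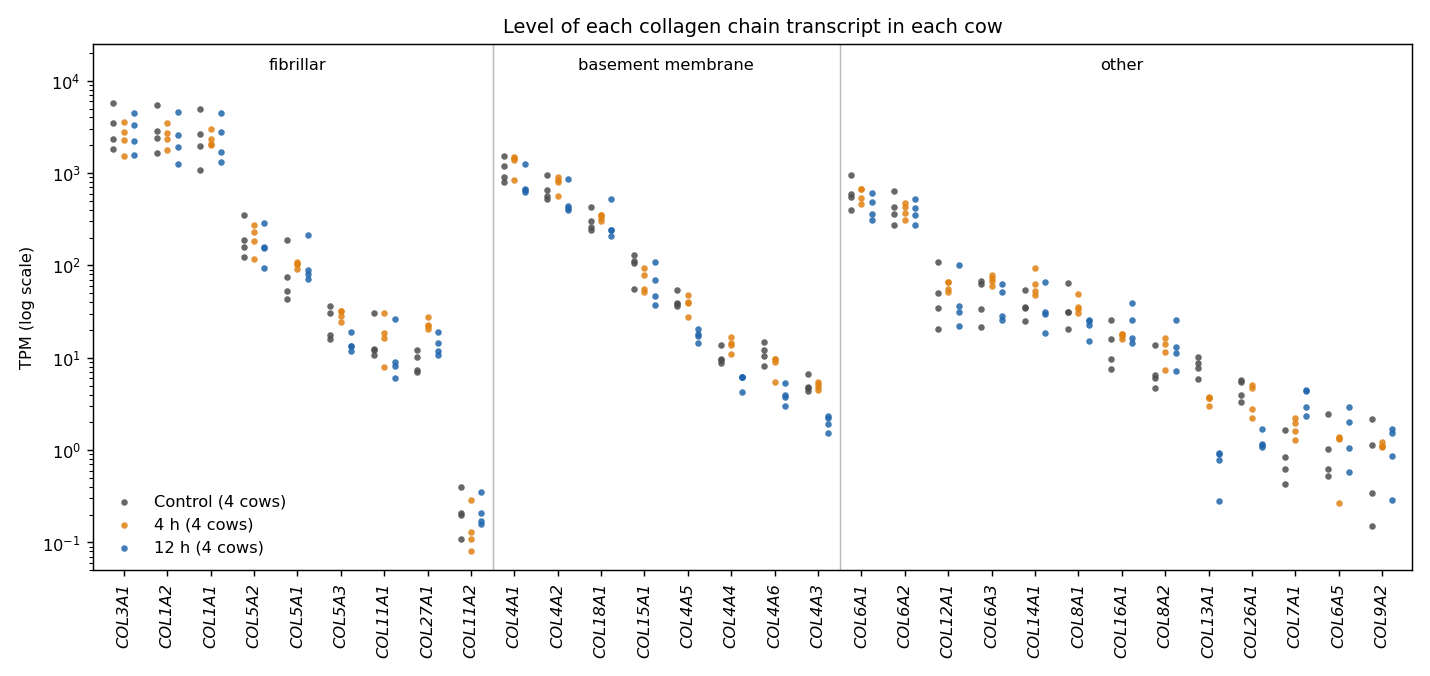
TPM on a log scale of each of the 30 collagen chains (x axis, by class and falling mean level) in each of the 12 cows, with 1 point per cow and colours for control, 4 h and 12 h. COL3A1, COL1A2 and COL1A1 lie at the top and COL11A2 at the bottom, and the points of the 3 groups overlap for the abundant chains of each class.

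At the low end, COL11A2 and COL9A2, chains best known from cartilage, stood at 0.230 ± 0.122 and 0.948 ± 0.919 TPM in controls (SD, n = 4). Their libraries held only 4 to 19 and 2 to 24 counts. Neither was called, but without the 4 h cow6455 COL11A2 was higher at 12 h than at 4 h, by 1.22 on the log2 scale (edgeR adjusted p = 0.0370). Of the 30 chains, 27 had at least 10 counts in all 12 libraries, and the remaining 3 were these and COL13A1. The 9 symbols under the minimum were COL2A1, COL6A6, COL9A1, COL9A3, COL10A1, COL17A1, COL20A1, COL23A1 and COL28A1. None of these had over 18 counts in a library, and they were not tested.

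After 4 h few of the chains differed from control. COL27A1, a fibrillar chain known from cartilage, rose, and COL13A1, a chain that spans the cell membrane at adhesion sites, fell. Thus 1 chain rose and 1 fell of 30, which is 6.67%, while 14.2% of all tested genes were called at 4 h by the same edgeR test (8.65% higher and 5.59% lower). The median log2 fold change of the 30 chains was 0.10, and that of all tested genes -0.03. DESeq2 called 3 rises and 1 fall, adding COL7A1 and COL14A1, and 19.0% of all genes. Without the control cow4285 and the 12 h cow6314, a pair left out after the data were seen because both stood highest in fibrillar chains, edgeR called 7 rises and 1 fall at 4 h, with 14.8% of all genes called. The added rises were those of COL5A1, COL4A2, COL18A1, COL7A1, COL8A2 and COL14A1. Without cow4285 alone only the rise of COL7A1 was added. The 12 h cow6314 is in neither group of this comparison and enters it through the single fit of the 3 groups. As the pair was picked on collagen levels, the added rises are no support for a change.

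After 12 h, 10 of the chains differed from control. COL4A3, COL4A4, COL4A5 and COL4A6 fell, together with COL13A1 and COL26A1. COL7A1, COL8A2, COL16A1 and COL27A1 rose. That is 4 rises and 6 falls of 30, or 33.3%, while 48.9% of all tested genes were called at 12 h (23.6% higher and 25.3% lower). The share among the chains was thus not above that of all genes. The median log2 fold change was 0.09 for the chains and 0.01 for all tested genes. Of the fibrillar chains 1 of 9 was called, of the basement membrane chains 4 of 8, and of the other chains 5 of 13. On the log2(TPM + 1) scale limma called 2 rises and 7 falls among the chains, while it called 10.4% of all genes higher and 38.9% lower. Without cow4285 and cow6314 edgeR called 5 rises and 5 falls, with 47.0% of all genes called, adding the rise of COL5A1 and losing the fall of COL4A4.

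Set directly against 4 h, the 12 h cows had 1 chain higher and 8 lower, while 46.7% of all tested genes differed between these times (22.5% higher and 24.3% lower). COL7A1 was higher at 12 h. COL4A3, COL4A4, COL4A5, COL4A6, COL5A3, COL13A1, COL26A1 and COL27A1 were lower. Without cow4285 and cow6314 1 chain was higher and 12 were lower, with 47.0% of all genes called. The added falls were those of COL4A1, COL4A2, COL11A1 and COL14A1. With an offset for transcript length in the fit 2 chains were higher and 6 lower, with 45.5% of all genes called. Across the 3 comparisons, 11 of the 30 chains were called at least once and 19 were called in none. The share of all tested genes called at least once is not given here. It cannot be below the 48.9% called at 12 h against control. The 4 h and 12 h comparisons share the control cows.

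**Figure D2:**
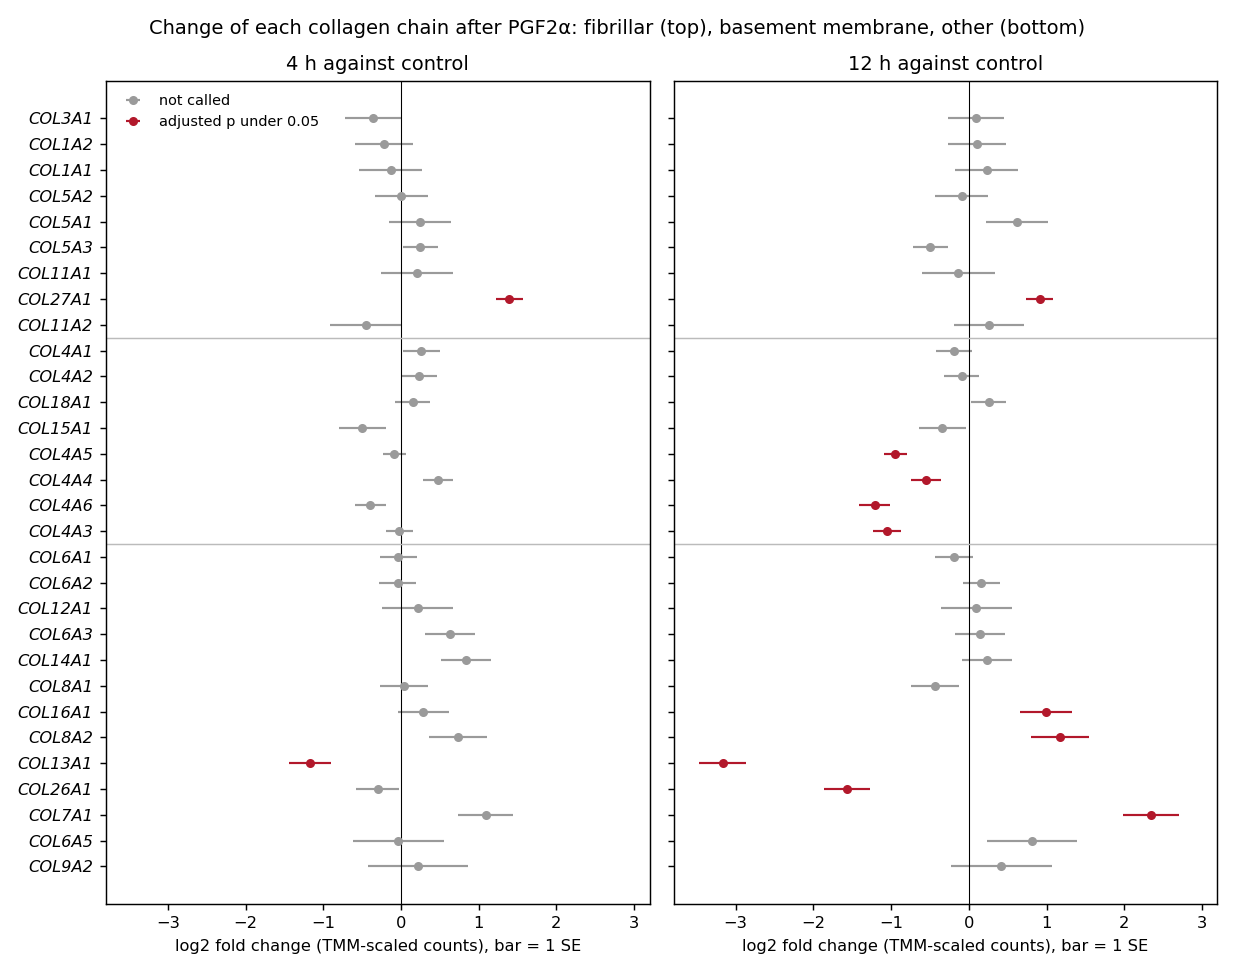
Log2 fold change of each chain against control at 4 h (left) and 12 h (right), from TMM-scaled counts, with bars of 1 SE (n = 4 cows per group) and red for an adjusted p under 0.05 from edgeR. At 4 h COL27A1 and COL13A1 are red, and at 12 h 4 chains are red to the right of 0 and 6 to the left.

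The fibrillar chains that build the bulk of stromal fibrils were not called at any time. Values per cow are given throughout in the order cow4285, cow6464, cow7367 and cow7514 for controls, cow4291, cow5341, cow6455 and cow6456 at 4 h, and cow5266, cow6314, cow7382 and cow7475 at 12 h. COL1A1 read 4959, 1072, 1966 and 2654 TPM in controls, 2045, 2325, 2039 and 2992 at 4 h, and 1330, 4429, 1685 and 2804 at 12 h. The 3 groups overlapped, and the highest cow of each outer group stood apart from the rest. Its log2 fold change was -0.13 at 4 h (SE 0.41, edgeR adjusted p = 0.863) and 0.23 at 12 h (SE 0.41, edgeR adjusted p = 0.664).

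COL1A2, the partner of COL1A1 in type I collagen, read 5495, 1632, 2387 and 2860 TPM in controls, 2355, 2704, 1770 and 3481 at 4 h, and 1245, 4549, 1929 and 2576 at 12 h. COL3A1, whose homotrimer is mixed into the same fibrils, read 5702, 1829, 2324 and 3495 in controls, 2287, 2809, 1518 and 3530 at 4 h, and 1575, 4526, 2200 and 3314 at 12 h. In both genes the cows of the 3 groups overlapped, with cow4285 and cow6314 again highest. The log2 fold changes were -0.22 and 0.10 for COL1A2 and -0.36 and 0.09 for COL3A1, at 4 h and 12 h (SE 0.37 to 0.38).

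COL5A2 and COL5A1 encode type V collagen, which starts fibrils and limits their width. COL5A2 read 349, 124, 158 and 190 TPM in controls, 185, 228, 118 and 272 at 4 h, and 93.2, 289, 154 and 160 at 12 h, with overlap throughout. COL5A1 read 187, 43.1, 52.9 and 75.4 TPM in controls, 104, 92.0, 110 and 103 at 4 h, and 70.9, 212, 89.7 and 80.7 at 12 h. Its 4 h cows all lay above 3 of the 4 controls and below cow4285. Its log2 fold change was 0.25 at 4 h (SE 0.40, edgeR adjusted p = 0.726) and 0.62 at 12 h (SE 0.40, edgeR adjusted p = 0.221). Without control cow4285 the 12 h value was 1.27 (edgeR adjusted p = 0.00447). Without cow4285 and cow6314 the values were 0.88 at 4 h and 0.90 at 12 h (edgeR adjusted p = 0.00706 and 0.00216). Without cow4285 alone the 4 h value was also 0.88 (edgeR adjusted p = 0.0694). The call for this gene thus rests on whether those cows are kept. The pair was left out because both cows stood highest in fibrillar chains, of which COL5A1 is 1. The p-values without the pair are therefore no support for a change.

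COL5A3, a rarer type V chain, read 30.8, 15.9, 17.7 and 36.5 TPM in controls, 31.8, 28.3, 31.7 and 24.2 at 4 h, and 13.4, 19.2, 11.7 and 13.3 at 12 h. All 12 h cows lay below all 4 h cows, and both overlapped the controls. From 4 h to 12 h it changed by -0.75 on the log2 scale (SE 0.23, edgeR adjusted p = 0.0167). With an offset for transcript length this value was -0.34 (adjusted p = 0.227), and the call was lost. Against control its 12 h value was -0.50 (SE 0.23, edgeR adjusted p = 0.0854), and it was called on the log2(TPM + 1) scale, at -0.71 (limma adjusted p = 0.0264). COL11A1, a minor fibrillar chain, stood at 16.3 ± 9.31 TPM in controls and 18.4 ± 9.34 and 12.4 ± 9.53 in the later groups (n = 4 each, SD) and was not called.

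COL27A1 was the 1 fibrillar chain called against control. It read 12.2, 7.31, 7.06 and 10.1 TPM in controls, 20.7, 27.8, 22.3 and 22.4 at 4 h, and 10.7, 19.0, 11.9 and 14.3 at 12 h. In TPM every 4 h cow was above every control and every 12 h cow, while the 12 h cows overlapped the controls. In TMM-scaled counts every 4 h cow and every 12 h cow was above every control, and the 12 h cows overlapped the 4 h cows. The log2 fold change was 1.39 at 4 h (SE 0.17, edgeR adjusted p = 3.46e-04) and 0.91 at 12 h (SE 0.17, edgeR adjusted p = 9.67e-04), or 2.62 and 1.88 times the control. Both calls held under each alternative run. The difference of -0.48 between 12 h and 4 h (SE 0.17, edgeR adjusted p = 0.0360) turned to 0.03 with the transcript length offset. It was also lost when any of cow7514 of the controls, cow5341, cow6455 or cow6456 of the 4 h group, or cow5266 or cow7382 of the 12 h group was left out (edgeR adjusted p = 0.0517 to 0.121).

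**Figure D3:**
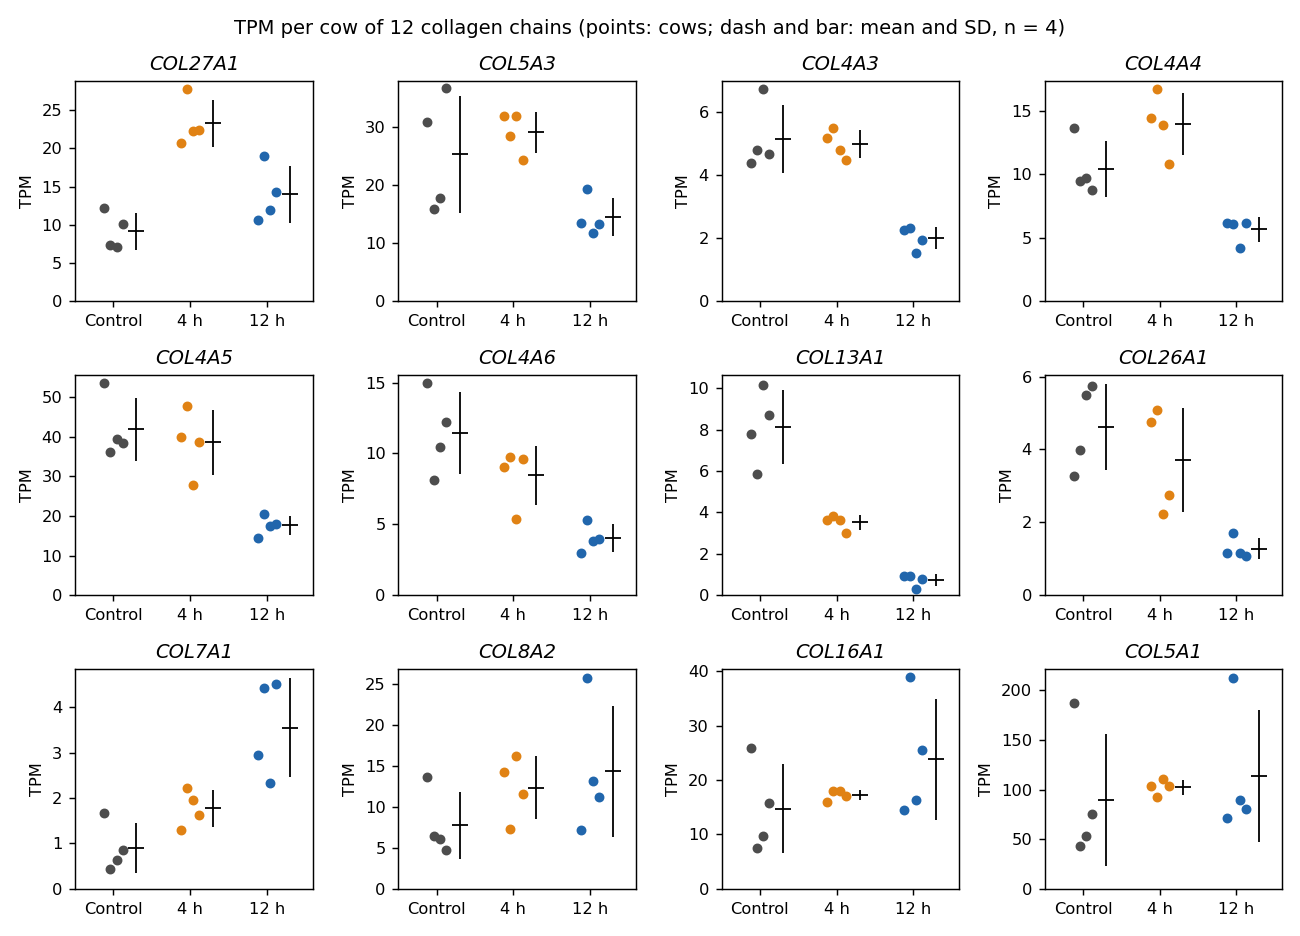
TPM per cow (y axis, from 0) of the 11 chains called in any comparison and of COL5A1, with 1 point per cow and the mean and SD of each group of 4 as a dash and bar. COL4A3 to COL4A6, COL13A1 and COL26A1 at 12 h lie below every control, COL7A1 lies above every control, and COL27A1 is highest at 4 h.

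Basement membrane chains divided by level. COL4A1 and COL4A2, whose genes lie 44.3 kb apart on chromosome 12 (84863917 to 84995777 and 85040120 to 85153241, build ARS-UCD1.2), were abundant and not called. COL4A1 read 1544, 800, 913 and 1186 TPM in controls, 1395, 1465, 848 and 1502 at 4 h, and 627, 1243, 653 and 666 at 12 h. In TPM, apart from cow6314, the 12 h cows lay below every control and every 4 h cow. COL4A2 read 958, 528, 563 and 662 in controls, 841, 804, 568 and 903 at 4 h, and 414, 857, 395 and 436 at 12 h, with the same order in TPM. In TMM-scaled counts this order did not hold. For COL4A1 every 12 h cow lay above control cow6464, and for COL4A2 only cow7382 of the 12 h cows lay below it. The log2 fold changes at 12 h were -0.19 for COL4A1 (SE 0.23, edgeR adjusted p = 0.533) and -0.09 for COL4A2 (SE 0.22, edgeR adjusted p = 0.759).

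Between 12 h and 4 h the values were -0.45 for COL4A1 (SE 0.23, edgeR adjusted p = 0.132) and -0.33 for COL4A2 (SE 0.22, edgeR adjusted p = 0.249). Without cow6314 they became -0.63 and -0.54 (edgeR adjusted p = 0.0342 and 0.0348). With all cows kept, limma on the log2(TPM + 1) scale called COL4A1 between the times, at -0.73 (limma adjusted p = 0.0389), and did not call COL4A2.

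COL4A3 and COL4A4 encode chains that join with the COL4A5 chain in the basement membranes of kidney, lung and ear, and COL4A5 and COL4A6 chains join in those of smooth muscle. COL4A4 and COL4A3 lie 91.2 kb apart on chromosome 2 (115168918 to 115226839 and 115318013 to 115478018). COL4A6 and COL4A5 lie 148 kb apart on chromosome X (56803357 to 57140369 and 57288214 to 57391723). All 4 fell at 12 h, and for each of them every 12 h cow lay below every control and every 4 h cow.

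COL4A5 was the most abundant of these 4, with 53.7, 36.1, 39.5 and 38.4 TPM in controls, 40.0, 47.8, 27.9 and 38.7 at 4 h, and 14.5, 20.6, 17.4 and 17.9 at 12 h. It fell by 0.94 on the log2 scale at 12 h (SE 0.15, edgeR adjusted p = 2.52e-04). COL4A6 read 14.9, 8.13, 10.4 and 12.2 TPM in controls, 9.05, 9.76, 5.40 and 9.61 at 4 h, and 2.99, 5.32, 3.79 and 3.98 at 12 h. It fell by 1.21 at 12 h (SE 0.20, edgeR adjusted p = 4.10e-04). At 4 h neither was called, with log2 fold changes of -0.09 and -0.40 (edgeR adjusted p = 0.738 and 0.203).

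COL4A3 read 4.39, 4.79, 6.73 and 4.68 TPM in controls, 5.19, 5.50, 4.79 and 4.47 at 4 h, and 2.25, 2.32, 1.54 and 1.94 at 12 h. It fell by 1.05 at 12 h (SE 0.18, edgeR adjusted p = 4.41e-04). COL4A4 read 13.7, 9.45, 9.74 and 8.75 TPM in controls, 14.4, 16.7, 13.9 and 10.8 at 4 h, and 6.16, 6.13, 4.21 and 6.20 at 12 h. Its fall of 0.55 was the smallest (SE 0.20, edgeR adjusted p = 0.0343). That call was lost when any of 6 cows was left out, among them cow4285, without which the value was -0.38 (edgeR adjusted p = 0.125). The gene model of COL4A4 in the tables had an effective length of 1254 bases, against 4914 for COL4A3.

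All 4 were also lower at 12 h than at 4 h, by -0.82 to -1.03 on the log2 scale (SE 0.15 to 0.20, edgeR adjusted p = 5.40e-04 to 0.00545). Those calls held under every alternative run, the transcript length offset included. COL4A3 to COL4A6 together held 3.35% to 4.30% of the summed TPM of the type IV chains in controls, 2.58% to 3.54% at 4 h and 1.61% to 2.65% at 12 h. The 12 h cows lay below every control in this share, which does not depend on the scaling between libraries. It was computed with the falls known and was not tested.

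COL18A1 and COL15A1 encode basement membrane collagens that carry long sugar chains, and the end of the COL18A1 chain is cut off as endostatin. COL18A1 read 431, 241, 261 and 303 TPM in controls, 350, 330, 300 and 355 at 4 h, and 243, 528, 242 and 207 at 12 h. COL15A1 read 105, 55.6, 129 and 112 TPM in controls, 79.2, 93.0, 56.0 and 51.0 at 4 h, and 37.4, 109, 46.7 and 69.5 at 12 h. Both overlapped between groups. The log2 fold changes at 12 h were 0.26 for COL18A1 (SE 0.23, edgeR adjusted p = 0.366) and -0.34 for COL15A1 (SE 0.30, edgeR adjusted p = 0.378).

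Among the other chains, those of type VI collagen were the most abundant and were not called. COL6A1 read 942, 403, 548 and 593 TPM in controls, 543, 680, 666 and 459 at 4 h, and 365, 606, 313 and 487 at 12 h. COL6A2, whose gene lies 120 kb from COL6A1 on chromosome 1 (145668949 to 145687210 and 145807169 to 145837649), read 644, 274, 361 and 424 in controls, 373, 430, 480 and 312 at 4 h, and 352, 526, 274 and 420 at 12 h. COL6A3, the largest chain of the type VI filament, read 68.0, 21.7, 33.8 and 63.5 in controls, 60.0, 78.1, 68.3 and 73.4 at 4 h, and 25.8, 62.6, 28.2 and 51.2 at 12 h. All 3 genes overlapped between control and 12 h cows. Their log2 fold changes at 12 h lay between -0.19 and 0.16 (SE 0.24 to 0.32). COL6A5, a rare relative of COL6A3, stood at 1.15 ± 0.880, 1.08 ± 0.539 and 1.64 ± 1.04 TPM (n = 4 each, SD).

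COL12A1, COL14A1, COL16A1 and COL9A2 encode fibril-associated chains, which sit on the surface of fibrils. COL12A1 read 108, 20.5, 34.4 and 50.6 TPM in controls, 66.6, 51.3, 55.2 and 65.7 at 4 h, and 21.9, 99.9, 31.4 and 36.0 at 12 h, and was not called. COL14A1 stood at 37.3 ± 12.1, 64.1 ± 20.4 and 36.5 ± 20.8 TPM (n = 4 each, SD). Its log2 fold change at 4 h was 0.83 (SE 0.33, edgeR adjusted p = 0.109, DESeq2 adjusted p = 0.0483).

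COL16A1 rose at 12 h. It read 25.9, 7.56, 9.69 and 15.9 TPM in controls, 16.0, 18.0, 17.9 and 17.0 at 4 h, and 14.6, 38.9, 16.3 and 25.5 at 12 h. The control and 12 h cows overlapped. The log2 fold change was 0.99 (SE 0.33, edgeR adjusted p = 0.0258). It fell to 0.79 (edgeR adjusted p = 0.0680) without cow6314, and was 0.69 on the log2(TPM + 1) scale (adjusted p = 0.108 from limma). Leaving out cow7475 of the 12 h group, or control cow6464 or cow7367, also ended the call (edgeR adjusted p = 0.0510 to 0.0724), as did a fit of only control and 12 h cows (0.0564).

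COL8A1 and COL8A2 encode short chains that form the lattices found in vessel walls and under the corneal endothelium. COL8A2 read 13.7, 6.47, 6.11 and 4.71 TPM in controls, 14.3, 7.37, 16.2 and 11.6 at 4 h, and 7.17, 25.8, 13.2 and 11.3 at 12 h, and overlapped between all groups. Its log2 fold change at 12 h was 1.18 (SE 0.38, edgeR adjusted p = 0.0206). Without cow6314 it was 0.88 (edgeR adjusted p = 0.0615), and the call also ended without control cow7367 or cow7514 (edgeR adjusted p = 0.0542 and 0.0544). On the log2(TPM + 1) scale it was 0.77 (adjusted p = 0.0970 from limma). COL8A1 stood at 36.7 ± 19.1, 37.3 ± 8.15 and 22.1 ± 4.91 TPM (n = 4 each, SD) and was not called.

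COL13A1 showed the largest change of the 30 chains. It read 7.79, 5.86, 10.2 and 8.72 TPM in controls, 3.64, 3.80, 3.63 and 3.0 at 4 h, and 0.91, 0.93, 0.28 and 0.78 at 12 h. The 3 groups did not overlap, with every 4 h cow between the controls and the 12 h cows. Its counts were 96 to 241 per control library, 56 to 99 at 4 h and 6 to 22 at 12 h. It fell by 1.17 on the log2 scale at 4 h (SE 0.27, edgeR adjusted p = 0.0130) and by 3.17 at 12 h (SE 0.30, edgeR adjusted p = 1.39e-05), a level 8.99-fold below control. Between 4 h and 12 h it fell further, by 1.99 (SE 0.30, edgeR adjusted p = 2.60e-04). All 3 calls held under every alternative run.

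COL26A1, a short chain described from testis and ovary, read 3.28, 3.99, 5.50 and 5.73 TPM in controls, 4.75, 5.09, 2.24 and 2.76 at 4 h, and 1.17, 1.71, 1.15 and 1.07 at 12 h. Every 12 h cow lay below every other cow. It fell by 1.57 at 12 h (SE 0.29, edgeR adjusted p = 8.75e-04), and at 4 h its log2 fold change was -0.30 (edgeR adjusted p = 0.508). The steroidogenic markers fell in the same 12 h cows, and their part in the falls of COL4A3 to COL4A6, COL13A1 and COL26A1 was not tested.

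COL7A1, the chain of the anchoring fibrils that tie epithelia to the stroma, moved the other way. It read 1.67, 0.43, 0.63 and 0.85 TPM in controls, 1.3, 2.23, 1.95 and 1.62 at 4 h, and 2.94, 4.41, 2.32 and 4.51 at 12 h. Every 12 h cow lay above every control and every 4 h cow, and only cow4285 of the controls overlapped the 4 h cows. The log2 fold change was 2.35 at 12 h (SE 0.36, edgeR adjusted p = 2.32e-04), or 5.08 times control, at a low level of 44 to 92 counts per control library and 196 to 411 at 12 h. At 4 h it was 1.09 (SE 0.35, edgeR adjusted p = 0.0587, DESeq2 adjusted p = 0.0151), and without cow4285 it was 1.52 (edgeR adjusted p = 0.00746). It was higher at 12 h than at 4 h by 1.26 (SE 0.34, edgeR adjusted p = 0.00904).

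Summed by class, the collagen transcripts overlapped between the groups. The fibrillar chains summed to 9439 ± 5233, 7838 ± 2047 and 8369 ± 4253 TPM in the groups in order of time (n = 4 each, SD). The basement membrane chains summed to 2267 ± 631, 2551 ± 488 and 1722 ± 699 TPM. Here cow6314 alone, at 2770 TPM, made the 12 h cows overlap the others. The rest of the 12 h cows read 1348, 1363 and 1408, below every control and 4 h cow (lowest 1684). The means at 4 h and 12 h differed by more than either SD, which was not tested. The other chains summed to 1260 ± 467, 1258 ± 183 and 1030 ± 324 TPM. The ratios of the 12 h to the control mean were 0.887, 0.760 and 0.818 for the 3 classes. Each difference was smaller than the SD of the control cows and that of the 12 h cows. These ratios are in TPM. From TMM-scaled counts per library they were 1.10, 0.916 and 1.02, so the side of 1 on which the fibrillar and other chains lay turned with the scaling.

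The spread within groups came largely from a cow in each of the outer groups. The fibrillar sum was 16766 in control cow4285 and 14071 in 12 h cow6314, while the other 10 cows lay between 4345 and 10455. The same cows were high in stromal markers. The 10 fibroblast markers summed to 4825 TPM in cow4285 against 2530 to 2964 in the other controls, and to 5892 in cow6314 against 2823 to 4259 in the other 12 h cows. The 11 pericyte and smooth muscle markers summed to 2101 in cow4285 against 706 to 991 in the other controls, and to 5127 in cow6314 against 912 to 1708. Endothelial markers were also highest in these cows, at 875 against 570 to 673 in controls and 955 against 470 to 524 at 12 h. Steroidogenic markers were lowest in them, at 22378 against 27896 to 32894 and 5438 against 8609 to 10989. Macrophage markers were lowest of the controls in cow4285 (219) and highest of the 12 h cows in cow6314 (871). The part of these cell types in the levels of the collagen chains was not tested. Of the fibroblast markers 3 rose and none fell at each time, of the pericyte markers 1 rose at 4 h, and 1 rose and 2 fell at 12 h. Of 13 endothelial markers 2 rose and 3 fell at 4 h, and 3 rose and 2 fell at 12 h. Among all tested genes 8.65% rose and 5.59% fell at 4 h, and 23.6% rose and 25.3% fell at 12 h.

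**Figure D4:**
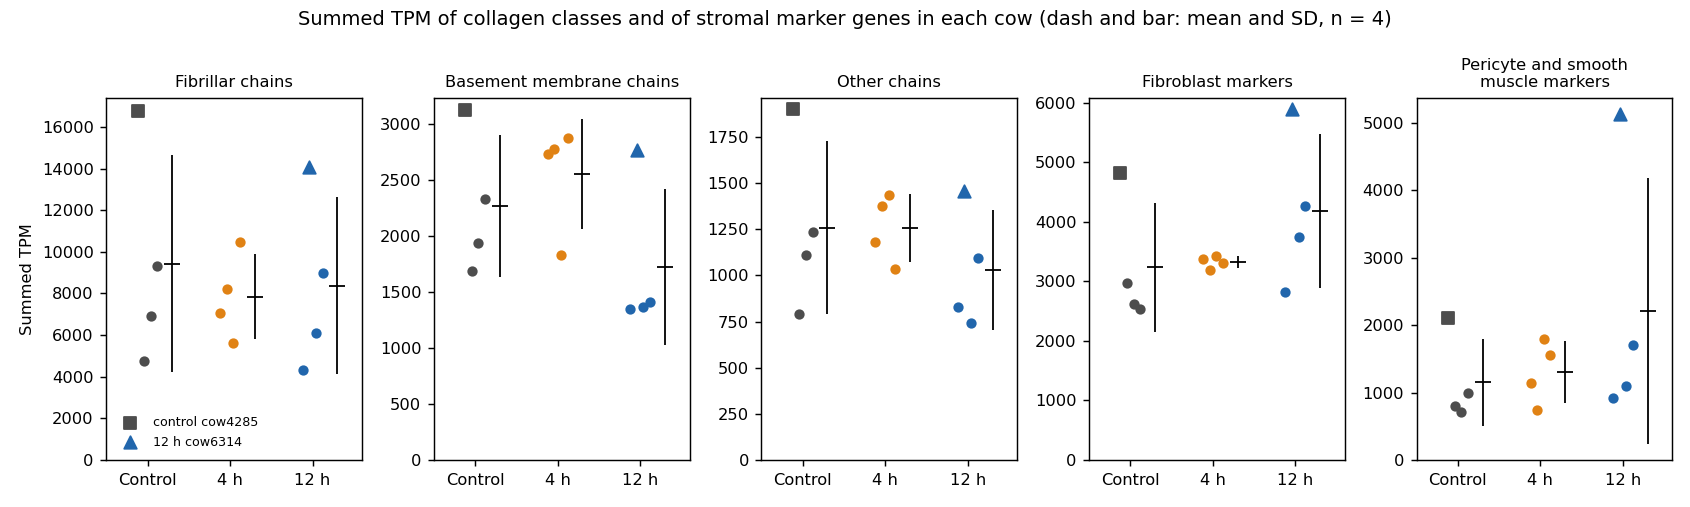
Summed TPM (y axis, from 0) per cow of the fibrillar, basement membrane and other collagen chains and of fibroblast and of pericyte and smooth muscle marker genes, with a dash at the mean of 4 cows and a bar of 1 SD. Control cow4285 (square) and 12 h cow6314 (triangle) are the highest cows of their groups in all 5 panels.

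Genes that make, process and break down collagen, and genes of its receptors, fibril-binding partners and basement membrane proteins, were followed in 6 lists of 96 tested genes. In all, 13 rose and 1 fell at 4 h, and 29 rose and 17 fell at 12 h (10 and 21 on the log2(TPM + 1) scale). That is 14.6% of the list genes at 4 h and 47.9% at 12 h, against 14.2% and 48.9% of all tested genes. By direction, 8.65% of all tested genes were higher and 5.59% lower at 4 h, and 23.6% were higher and 25.3% lower at 12 h. The counts of each list below are to be set against these shares. The list of folding and modification enzymes had 23 tested genes, of which 1 fell at 4 h and 6 rose and 5 fell at 12 h, with a median log2 fold change of 0.21 at 12 h. PPIB and P3H1, which work in the complex that modifies prolines of new chains, rose by 0.50 and 0.64 on the log2 scale at 12 h (SE 0.09 and 0.13, edgeR adjusted p = 7.29e-04 and 0.00120). P4HA3, a prolyl hydroxylase subunit, fell by 1.22 (SE 0.16, edgeR adjusted p = 7.79e-05) at 12 h and by 0.63 (SE 0.15, edgeR adjusted p = 0.0190) at 4 h. SEC23A, part of the coat that carries procollagen out of the endoplasmic reticulum, fell by 0.68 at 12 h (SE 0.12, edgeR adjusted p = 5.48e-04). On the log2(TPM + 1) scale no gene of this list rose at 12 h, and PPIB and P3H1 read 0.19 and 0.33.

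Of the 14 genes of procollagen processing and crosslinking, 3 rose at 4 h, and 4 rose and 2 fell at 12 h, with a median of 0.11 at 12 h. LOXL4, a lysyl oxidase that crosslinks collagen, had means of 6.95 ± 2.32, 23.7 ± 11.3 and 49.4 ± 16.1 TPM (n = 4 each, SD) in the groups in order of time. It rose by 1.84 on the log2 scale at 4 h (SE 0.37, edgeR adjusted p = 0.00642) and 3.16 at 12 h (SE 0.38, edgeR adjusted p = 5.11e-05). PCOLCE2, an enhancer of procollagen cleavage, and ADAMTS14, a procollagen protease, rose by 1.55 and 1.85 at 12 h (SE 0.27 and 0.41). BMP1, the protease that removes the C-terminal propeptide of procollagen, fell by 0.49 (SE 0.11, edgeR adjusted p = 0.00321). PXDN, the peroxidase that crosslinks type IV collagen, rose by 0.47 at 4 h (SE 0.08, edgeR adjusted p = 0.00333).

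Of the 14 tested genes of collagen breakdown and uptake 4 rose at 4 h and 9 at 12 h against control, and none fell, with a median log2 fold change of 0.76 at 12 h. Among all tested genes 8.65% rose at 4 h and 23.6% at 12 h. MMP1, the interstitial collagenase, went from 0.128 ± 0.0519 TPM in controls to 6.93 ± 3.84 at 4 h and 6.62 ± 3.93 at 12 h (n = 4 each, SD), with log2 fold changes of 5.68 and 5.93 (SE 0.67 each). MMP14, a membrane collagenase, went from 112 ± 34.7 to 281 ± 36.3 TPM at 12 h, a log2 fold change of 1.65 (SE 0.18). CTSB, a lysosomal protease, and FAP, a protease of activated fibroblasts, rose by 1.04 and 2.44 at 12 h (SE 0.18 and 0.48). TIMP3, which is an inhibitor of such proteases, rose by 1.55 at 4 h (SE 0.18, edgeR adjusted p = 2.49e-04). Between 4 h and 12 h, 7 genes of the list rose, and MMP16, a membrane protease, and TIMP3 fell by 0.91 and 1.04 on the log2 scale (SE 0.25 and 0.18). The number of rises at 12 h against control was 4 on the log2(TPM + 1) scale, where 10.4% of all tested genes were called higher. Macrophage markers rose with this list at 12 h, summing to 219 to 665 TPM in controls and 556 to 871 at 12 h, and their part was not tested.

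Of 10 tested collagen receptors, 2 rose at 4 h, and 2 rose and 3 fell at 12 h, with a median of -0.0046 at 12 h. DDR2, a receptor kinase for fibrillar collagen, went from 20.5 ± 3.80 TPM in controls to 4.97 ± 0.384 at 12 h (n = 4 each, SD), a fall of 1.78 on the log2 scale (SE 0.23, edgeR adjusted p = 7.87e-05). ITGA1, an integrin subunit for type IV collagen, fell by 2.01 (SE 0.40), and ADGRG6, an adhesion receptor that binds type IV collagen, fell by 1.95 (SE 0.28). ITGA10, an integrin subunit for type II collagen, rose by 1.79 (SE 0.36). DDR1 and ITGA2 rose by 0.56 and 1.33 at 4 h (SE 0.16 and 0.36).

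Of 18 fibril-binding proteoglycans and partners, 2 rose at 4 h, and 8 rose and 2 fell at 12 h, with a median of 0.44 at 12 h. THBS2, a matrix protein that affects fibril assembly, rose by 1.81 at 4 h and 1.71 at 12 h (SE 0.31 each). TNXB, a fibril-linking glycoprotein, rose by 2.12 at 4 h and 1.10 at 12 h (SE 0.30 each). OMD and OGN, small leucine-rich proteoglycans, fell by 3.65 and 0.99 at 12 h (SE 0.50 and 0.19). DCN, LUM and DPT of this list are also fibroblast markers, and these were the 3 fibroblast markers that rose at 12 h. On the log2(TPM + 1) scale 1 gene of the list rose at 12 h, and without cow6455 and cow6314 4 rose.

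Of 17 laminins and other basement membrane proteins, 2 rose at 4 h, and none rose and 5 fell at 12 h, with a median of -0.15 at 12 h. LAMA2, a laminin chain of muscle and nerve, fell by 2.87 (SE 0.37) at 12 h, from 1.36 ± 0.312 to 0.155 ± 0.0785 TPM (n = 4 each, SD). LAMA1, another laminin chain, went from 172 ± 28.5 to 77.5 ± 16.4 TPM, a fall of 0.83 (SE 0.21). HSPG2, the proteoglycan perlecan, fell by 0.82 (SE 0.23), and FREM1 by 1.86 (SE 0.48). NID2, a linker of laminin to type IV collagen, and SMOC1, a basement membrane glycoprotein, rose by 0.54 and 2.01 at 4 h (SE 0.14 and 0.54). The falls of LAMA1 and HSPG2 read -0.34 and -0.25 with the transcript length offset and were no longer called.

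The 30 chains had a median effective transcript length of 4968 bases, against 2117 for all tested genes. The median log2 fold change of the 30 chains at 12 h was 0.09 on the TMM scale, -0.21 on the log2(TPM + 1) scale and 0.29 with the transcript length offset. The median of all tested genes was 0.01, -0.25 and 0.04 on the same scales, and the part of transcript length in these moves was not tested. The falls of COL4A3, COL4A4, COL4A5, COL4A6, COL13A1 and COL26A1 and the rises of COL7A1 and COL27A1 were called on all 3 scales. The signs of COL1A2, COL3A1, COL11A2, COL12A1, COL14A1, COL18A1, COL6A2 and COL6A3 at 12 h turned on the log2(TPM + 1) scale, and those of COL4A1, COL4A2, COL5A2 and COL11A1 with the offset. None of these was called at 12 h on the TMM scale.

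**Figure D5:**
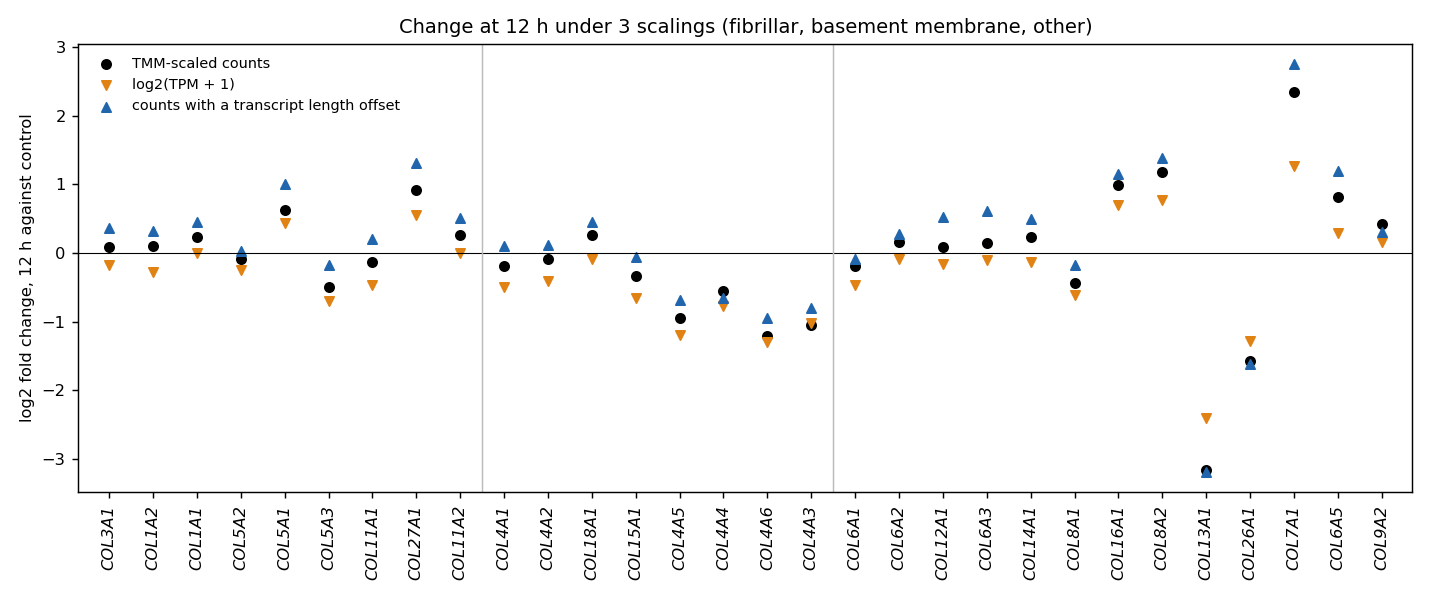
Log2 fold change at 12 h against control of each chain (x axis, by class) from TMM-scaled counts (circles), on the log2(TPM + 1) scale (downward triangles) and from counts with a transcript length offset (upward triangles). COL4A3 to COL4A6, COL13A1 and COL26A1 lie below 0 and COL27A1, COL7A1, COL8A2 and COL16A1 above 0 on all 3 scales, while the abundant chains lie on both sides of 0.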

How the data were processed

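RNA of whole corpora lutea was measured in 12 cows, 4 per group, each cow giving 1 library. STAR 2.5, RSEM 1.3 and the build ARS-UCD1.2 are named in the processing notes of the submitters. The authors deposited 1 table per cow with the expected count (estimated reads), TPM and FPKM of 27270 genes. Coordinates are those of the deposited tables, which give no strand.

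Rounded expected counts of the 14481 genes that reached 10 in 4 or more libraries were scaled by TMM and fitted in edgeR 4.0.16 (quasi-likelihood test, 3 groups in 1 fit). P-values were adjusted by Benjamini-Hochberg over all genes within each comparison, with a threshold of 0.05. SEs and p-values cover counting error and the spread between animals. Class sums and per-cow levels are deposited TPM, with no test. The effective length is the mean over libraries. In groups of 4, a cow was listed as far from the others above Dixon's 0.829.

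Alternatives were DESeq2 1.42.0, RLE scaling, no count minimum, a minimum of 50, only the 2 groups compared, limma 3.58.1 on log2(TPM + 1) and log2(TPM + 0.1), no mitochondrially encoded genes, an offset for transcript length (spline with 5 degrees of freedom), each cow left out, cow6455 and cow6314 left out, and for sums FPKM and TMM-scaled CPM. Leaving out cow4285 and cow6314 was added after seeing the data. The members and lists were chosen with earlier results of these data known. Every member is named. Values per cow are given for the 4 most abundant chains of each class, for the 5 largest rises and falls called at each time and for the 3 largest between the times, and up to 4 genes per list with the smallest p at 12 h and 2 at 4 h are named. The values per cow of COL4A4, COL5A1 and COL5A3 were chosen after they were seen. LAIR1 and GP6 were not analysed here. The edgeR, DESeq2 and limma fits were tested on simulated data. Tables and figures were made with scipy 1.17.1, matplotlib 3.10.9, numpy 2.4.6 and pandas 2.3.3 under Python 3.11.15, and the fits ran under R 4.3.3.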

Additional observations from a re-analysis of the deposited data

Results flagged for a closer look

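In 90 groups of 4 cows, 1 for each chain and group, 12 readings stood far from those of the other cows of their group in TPM. Some cows gave more than 1 of these readings. For independent, normally distributed values chance alone lists about 1 in 20 groups. The chains were read in the same cows, so the 90 groups are not independent. The count of 12 cannot be judged against that rate. Of the 12 readings, 6 came from the 12 h cow6314. It read 1243 for COL4A1 (others 627 to 666), 857 for COL4A2 (395 to 436), 528 for COL18A1 (207 to 243), 212 for COL5A1 (70.9 to 89.7), 26.6 for COL11A1 (6.05 to 8.95) and 1.71 for COL26A1 (1.07 to 1.17). Control cow4285 read 30.3 for COL11A1 (others 10.6 to 12.4). The 4 h cow6455 was low, at 848 for COL4A1 (others 1395 to 1502), 5.40 for COL4A6 (9.05 to 9.76) and 0.27 for COL6A5 (1.31 to 1.38). The 12 h cow7382 read 4.21 for COL4A4 (others 6.13 to 6.20), and control cow7367 read 6.73 for COL4A3 (others 4.39 to 4.79).

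The effects at 4 h and 12 h, which share the control cows, differed for 9 chains by the direct edgeR test of 12 h against 4 h, with 8 lower and 1 higher at 12 h.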

How the results depend on the processing

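No paired analysis was possible because the labels give each cow a tag and no number shared between groups. The 6 class ratios moved by less than 1 SD of the ratio under every alternative run, though that of the fibrillar chains at 12 h went from 0.887 to 1.01 in FPKM and 1.10 in TMM-scaled counts, and the counts of chains that fell stayed within 1.5 times. Of the chains' counts, DESeq2 gave 4 calls at 4 h with 3 rises, and called 19.0% of all genes. Leaving out cow4285 and cow6314 gave 8 calls with 7 rises, and 14.8% of all genes. The rises at 12 h numbered 2 on log2(TPM + 1), on log2(TPM + 0.1) and without cow6455 and cow6314. Over all genes 1509, 1543 and 3262 were higher in these runs, against 3417 in the main fit. Between the times 2 chains were higher when only these 2 groups were fitted and with the transcript length offset. These runs called 3288 and 3710 of all genes higher, against 3252. In the pathway lists 0 genes fell at 4 h when only the 2 groups were fitted, and 10 rose at 12 h on log2(TPM + 1) and 11 on log2(TPM + 0.1), against 29. With 1 cow left out, the rises of chains ranged from 1 to 2 at 4 h (2 without cow4291 or cow4285), from 2 to 5 at 12 h (2 without cow6314 or cow7367), and from 1 to 2 between the times (2 without cow6455 or cow4285). For the lists they ranged from 8 to 15 rises (8 without cow7514) and from 0 to 1 falls at 4 h (0 without cow4291, cow6456, cow6464 or cow7514). The calls over all genes moved as well. With 1 cow left out, 893 (without cow7514) to 1377 genes were higher and 374 to 797 lower at 4 h, against 1253 and 809. At 12 h 2819 to 3705 were higher, against 3417. Between the times 2591 to 3468 were higher, against 3252. The cause of these changes was not tested.

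Among the values followed, those whose sign turned were not called, except COL27A1 between the times, which read 0.028 with the length offset. On both log2 TPM scales COL1A1 at 4 h read 0.016, and at 12 h COL12A1 read -0.16, COL18A1 -0.089, COL1A2 -0.28, COL3A1 -0.18, COL6A2 -0.085, COL6A3 -0.11 and COL14A1 -0.13 and -0.14, while COL11A2 turned on log2(TPM + 1) alone. Turned signs of uncalled chains between the times are not listed. With the length offset COL4A1 read 0.10, COL4A2 0.12, COL5A2 0.032 and COL11A1 0.21 at 12 h, and COL5A2 -0.070 and COL8A1 -0.049 at 4 h. COL4A3 at 4 h read 0.0003 with DESeq2 and 0.0012 with RLE scaling. Without cow4285 and cow6314 COL1A1 read 0.34, COL1A2 0.20, COL3A1 0.020, COL4A5 0.050, COL6A1 0.23, COL6A2 0.22, COL6A5 0.57 and COL8A1 -0.025 at 4 h, and COL5A2 0.035 at 12 h. Without cow6455 and cow6314 COL4A5 read 0.023 and COL6A5 0.28 at 4 h, and at 12 h COL12A1 read -0.46, COL18A1 -0.053, COL1A1 -0.084, COL1A2 -0.23, COL3A1 -0.13, COL14A1 -0.13 and COL6A3 -0.042.

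With 1 cow left out, the log2 fold changes at 4 h ranged from -0.033 to 0.80 for COL12A1, -0.37 to 0.34 for COL1A1, -0.41 to 0.20 for COL1A2, -0.54 to 0.020 for COL3A1, -0.083 to 0.16 for COL4A3, -0.19 to 0.049 for COL4A5, -0.16 to 0.37 for COL5A2, -0.17 to 0.23 for COL6A1 and -0.18 to 0.22 for COL6A2. At 12 h they ranged from -0.41 to 0.70 for COL12A1, -0.029 to 0.72 for COL1A1, -0.18 to 0.55 for COL1A2, -0.073 to 0.49 for COL3A1, -0.35 to 0.028 for COL4A1, -0.29 to 0.14 for COL4A2, -0.32 to 0.30 for COL5A2, -0.30 to 0.096 for COL6A1 and -0.057 to 0.39 for COL6A3. COL11A2, COL9A2 and COL13A1 had the fewest counts, with 6 to 22 per library for COL13A1 at 12 h.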

Other observations

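Ratios of TPM between chains of the same collagen do not depend on the scaling between libraries. COL6A1 over COL6A2 was 1.40 to 1.52 in the control cows, 1.39 to 1.58 at 4 h and 1.03 to 1.16 at 12 h. The 12 h cows did not overlap the controls (two-sided exact permutation test, p = 0.0286, the smallest p that 4 cows against 4 allow). Over the 12 ratio comparisons made the adjusted p was 0.171, which misses the threshold, and the ratio was picked out after its values were seen. The effective lengths of the pair were 2985 and 3160 bases. Of the other 5 tested ratios at 12 h, COL4A5 over COL4A6 and COL5A1 over COL5A2 each gave p = 0.0571, COL1A1 over COL1A2 0.0857, COL6A1 over COL6A3 0.257 and COL4A1 over COL4A2 0.286 by the same exact test. No tested ratio passed the threshold after adjustment, and the ratios were not tested against each other. COL8A2 over COL8A1 was left out of these comparisons and was not tested. It was 0.0949 to 0.440 in controls, 0.150 to 0.525 at 4 h and 0.438 to 1.15 at 12 h.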
